A study of Mus musculus with 8 samples.

Results

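The transporters described here are the Slc1, Slc3, Slc6, Slc7, Slc36, Slc38 and Slc43 carriers of mouse liver, compared between mice given potassium sorbate and mice given water. Genes were chosen by symbol and by a minimum of 40 counts summed over 8 libraries. Of the 55487 genes in the table, 61 had a symbol of these families and 34 of those reached 40 counts. The sorbate group held 4 liver libraries from male C57Bl/6J mice of about 10 weeks, 4 hours after an oral gavage of 17 mg of the preservative. The control group held 4 libraries from mice of the same sex, strain and age, 4 hours after a gavage of water. The strain is inbred, no allele or transgene is named for either group, and the labels do not say that each library came from a different animal, so the p-values rest on the spread among libraries, some of which may be technical.

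Amino acid carriers are grouped into transport systems by what they carry and by what drives them. Sodium-coupled carriers such as those of systems A and N move neutral amino acids or glutamine against a gradient, the Slc7 light chains exchange one amino acid for another once joined to an Slc3 heavy chain, and several Slc36 and Slc38 members work in the lysosomal membrane. In liver these carriers supply alanine, glutamine, arginine and other amino acids for gluconeogenesis, the urea cycle and protein synthesis, and some of them are confined to the hepatocytes next to the central vein or the portal tract.

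The 4 sorbate libraries held 15773932 to 25844731 counts and the 4 control libraries 17725351 to 22183016. The summed level of 8 hepatocyte markers was 93871 to 118993 CPM in sorbate libraries and 82898 to 99357 CPM in control libraries, and 4 of 6 pancreas markers had 0 counts in all 8. CPM is the number of counts per 1000000 after TMM scaling, a correction for differences in library composition. One library stood apart. Control 2 differed from the other control libraries with a mean chi-square per gene of 151 to 241, against 45.8 to 92.4 among the other control pairs and 25.1 to 65.4 among the sorbate pairs, taken over genes with at least 20 counts in the pair. For many of the transporters below its value lay nearer to the sorbate libraries than those of the other controls did, and results that rest on it are given with and without it. It also stood apart from the other controls in markers of other cells. Neutrophil markers summed to 1.10 to 2.93 CPM in sorbate libraries, against 2.18 CPM in control 2 and 15.0 to 27.7 CPM in the other controls. Erythroid markers summed to 251 to 373 CPM in sorbate libraries, against 331 CPM in control 2 and 529.6 to 1379 CPM in the other controls. Within that list Alas2 went the other way, averaging 155 CPM with sorbate and 120 CPM in control (adjusted p = 0.0795), a large part of the sorbate sum. Bile duct markers summed to 27.5 to 42.3 CPM in sorbate libraries, against 52.0 CPM in control 2 and 123 to 248 CPM in the other controls. Most of this sum came from Spp1, which averaged 30.7 CPM in sorbate libraries and 138 CPM in control libraries. Sox9 was also lower, but Krt19 averaged 1.38 CPM with sorbate and 0.684 CPM in control (adjusted p = 0.113). Epcam differed little, at 0.808 CPM with sorbate and 0.771 CPM in control (adjusted p = 0.942). Krt7, not tested, averaged 0.725 CPM with sorbate and 0.475 CPM in control. Of the tested markers, 2 of 2 for neutrophils, 4 of 5 for erythroid cells and 2 of 4 for bile duct cells were called lower. Among all genes tested, 6.3% were called lower. The neutrophil marker S100a9 had a mean of 0.228 CPM in sorbate libraries, under the 0.471 CPM at which a library passed the count filter. S100a9 entered the test mainly through control libraries, with a mean of 7.07 CPM, so its direction was largely set beforehand. The part of these cells in the results below was not tested.

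The level of these genes was concentrated in few of them. Per kilobase of exon, which allows genes to be set side by side, the mean level over all 8 libraries was 277 CPM for Slc38a3, the system N glutamine carrier of liver, and 237 CPM for Slc38a4, a system A carrier of hepatocytes. Slc7a2, the low-affinity carrier of arginine and lysine, followed with 65.0 CPM per kilobase. Together these 3 genes made up 73.3% of the summed level of all 34 members. The next were Slc6a13, a carrier of taurine, betaine and GABA, with 51.8, Slc3a1 with 39.4, Slc6a12, the betaine carrier, with 23.8, and Slc38a2, the system A carrier that responds to amino acid supply in many cells, with 22.5 CPM per kilobase. At the low end stood Slc1a3, a glutamate carrier best known from glia, with 0.0441 CPM per kilobase. The summed level of all 34 genes was 887 ± 59.6 CPM per kilobase in sorbate libraries and 694 ± 95.8 in control libraries (SD, n = 4 each), and no control library reached the lowest sorbate library.

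**Figure D1:**
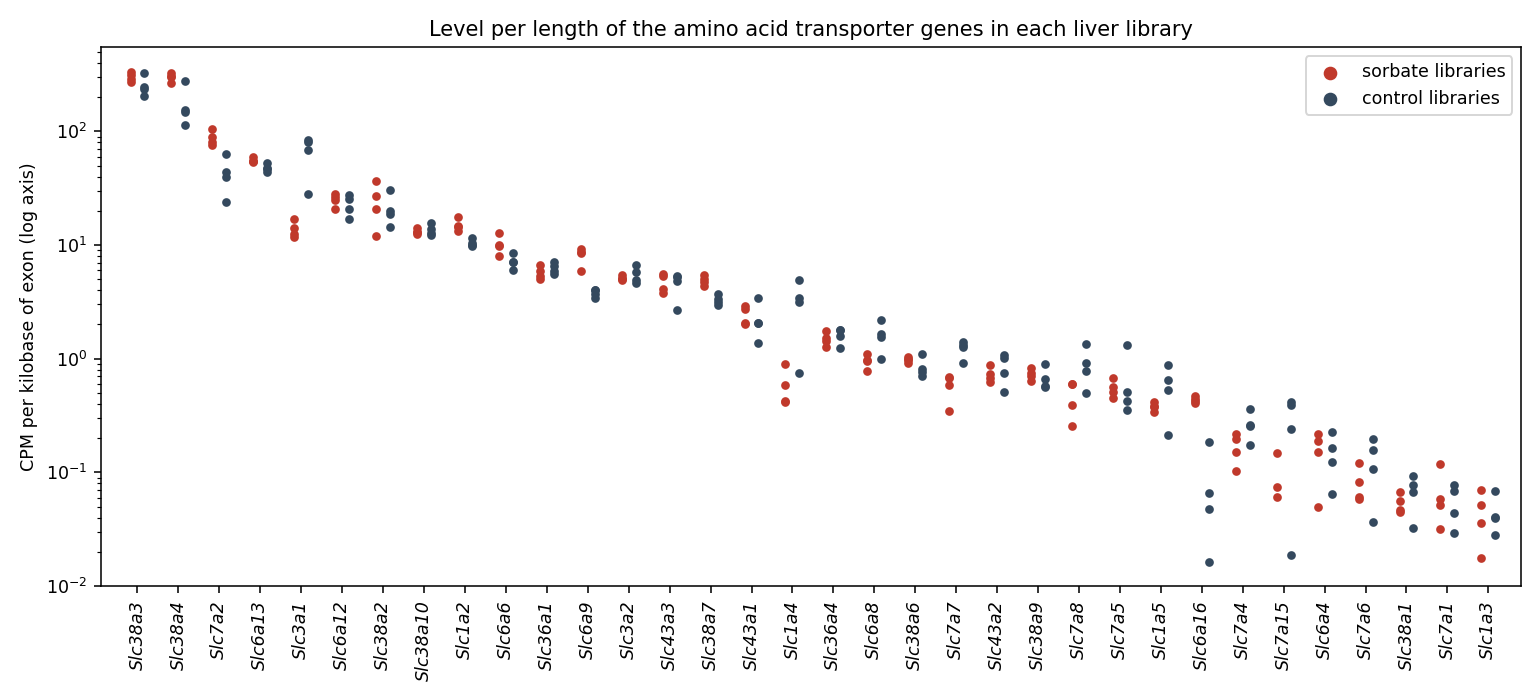
Level of the 34 transporter genes in CPM per kilobase of exon on a log axis, with each sorbate and each control library as a point and genes in order of their mean. Slc38a3 and Slc38a4 stand at the top with means of 277 and 237 CPM per kilobase and Slc1a3 at the bottom with 0.0441; a library with 0 counts, as for Slc7a15 in sorbate 4, has no point on this axis.

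**Figure D2:**
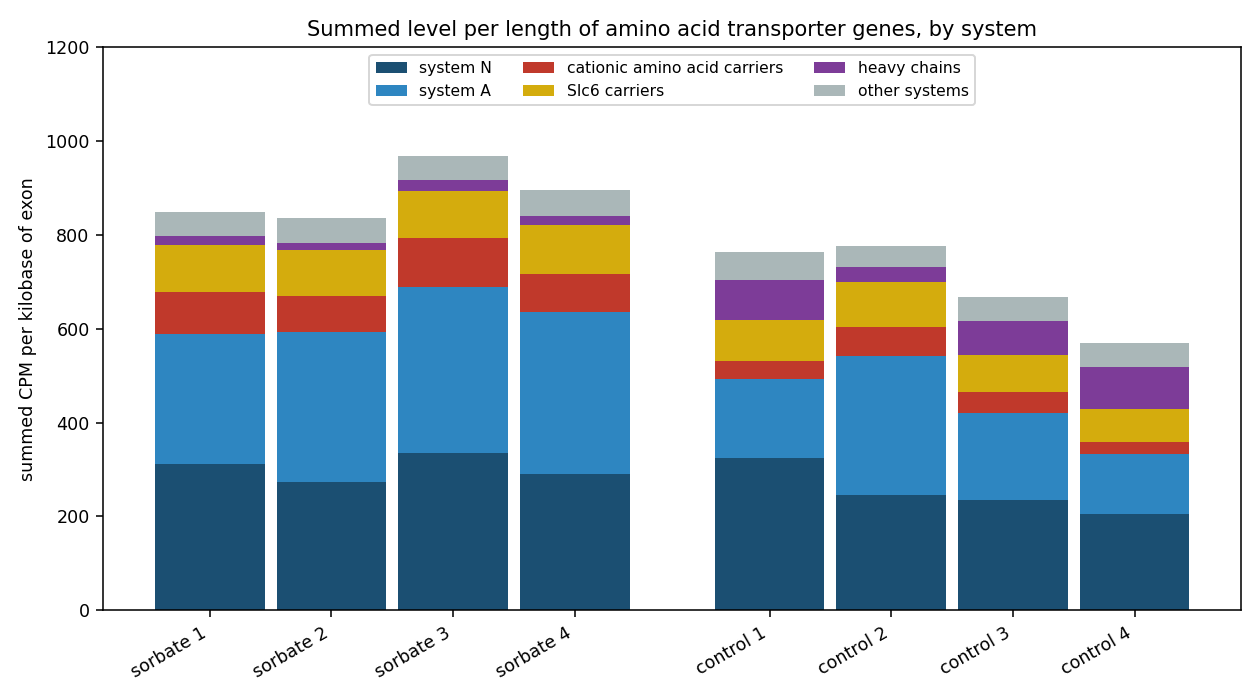
Stacked bars of the summed CPM per kilobase of exon of the 34 genes in each library, split by transport system. Systems N and A fill most of every bar, the heavy chain segment is narrower in the 4 sorbate libraries than in the control libraries, and the whole bars average 887 CPM per kilobase with sorbate and 694 in control.

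In every library 12 genes of the same families had 0 counts, which at a limit of 3 counts over the summed depth allows up to 0.0180 CPM, counting error only. They include Slc6a19's close relative Slc6a18, the noradrenaline and dopamine carriers Slc6a2 and Slc6a3, and Slc7a13, a light chain partner of Slc3a1 in mouse kidney. A further 15 genes had between 1 and 39 counts in all. Just inside the 40-count limit stood Slc1a3 with 62 counts, the light chain Slc7a6 with 77 and Slc7a15 with 85, and just outside it the proline carrier Slc6a7 with 22, Slc6a21 with 13 and the cationic carrier Slc7a3 with 12. Slc7a11, the cystine exchanger, had 4 counts over the 8 libraries and Slc7a9, the light chain that pairs with Slc3a1 in kidney and gut, also had 4.

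Enough counts for a test were found for 32 members, all but Slc7a6 and Slc1a3. Of these 32, 8 passed an adjusted p of 0.05 in edgeR's quasi-likelihood test, which is 25.0% against 12.4% of all 13312 genes tested. The 5 that were higher with sorbate made up 15.6% of the 32, against 6.14% of all genes, and the 3 that were lower made up 9.38%, against 6.3%. The 5 higher genes were Slc7a2, Slc1a2, Slc6a9, Slc38a7 and Slc6a16, and the 3 lower ones were Slc3a1, Slc1a4 and Slc7a7. Over the 32 genes the median log2 fold change of sorbate over control was 0.04, against -0.02 over all genes, with 17 genes above 0 and 15 below. The groups did not overlap for 7 of the 8 called genes, nor for Slc6a13, which was not called. These 8 are 25.0% of the 32 members, against 17.7% of all genes. Of them 6 were higher with sorbate, where 9.42% of all genes were, and 2 lower, where 8.32% of all genes were. Scaling to library size alone moved the median of all genes to 0.11 and gave 7 higher and 3 lower members, beside 1300 higher and 550 lower genes in all, against 818 and 838 with TMM. Without control 2, 8 members were called higher and 7 lower, beside 2053 higher and 1915 lower genes in all. Without control 3 or sorbate 4, 3 members were called higher, beside 332 and 367 higher genes in all. A looser adjusted p of 0.1 took in 12 of the 32, against 20.7% of all genes. One of the called genes, Slc6a16, entered the test through its sorbate libraries, as described below.

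**Figure D3:**
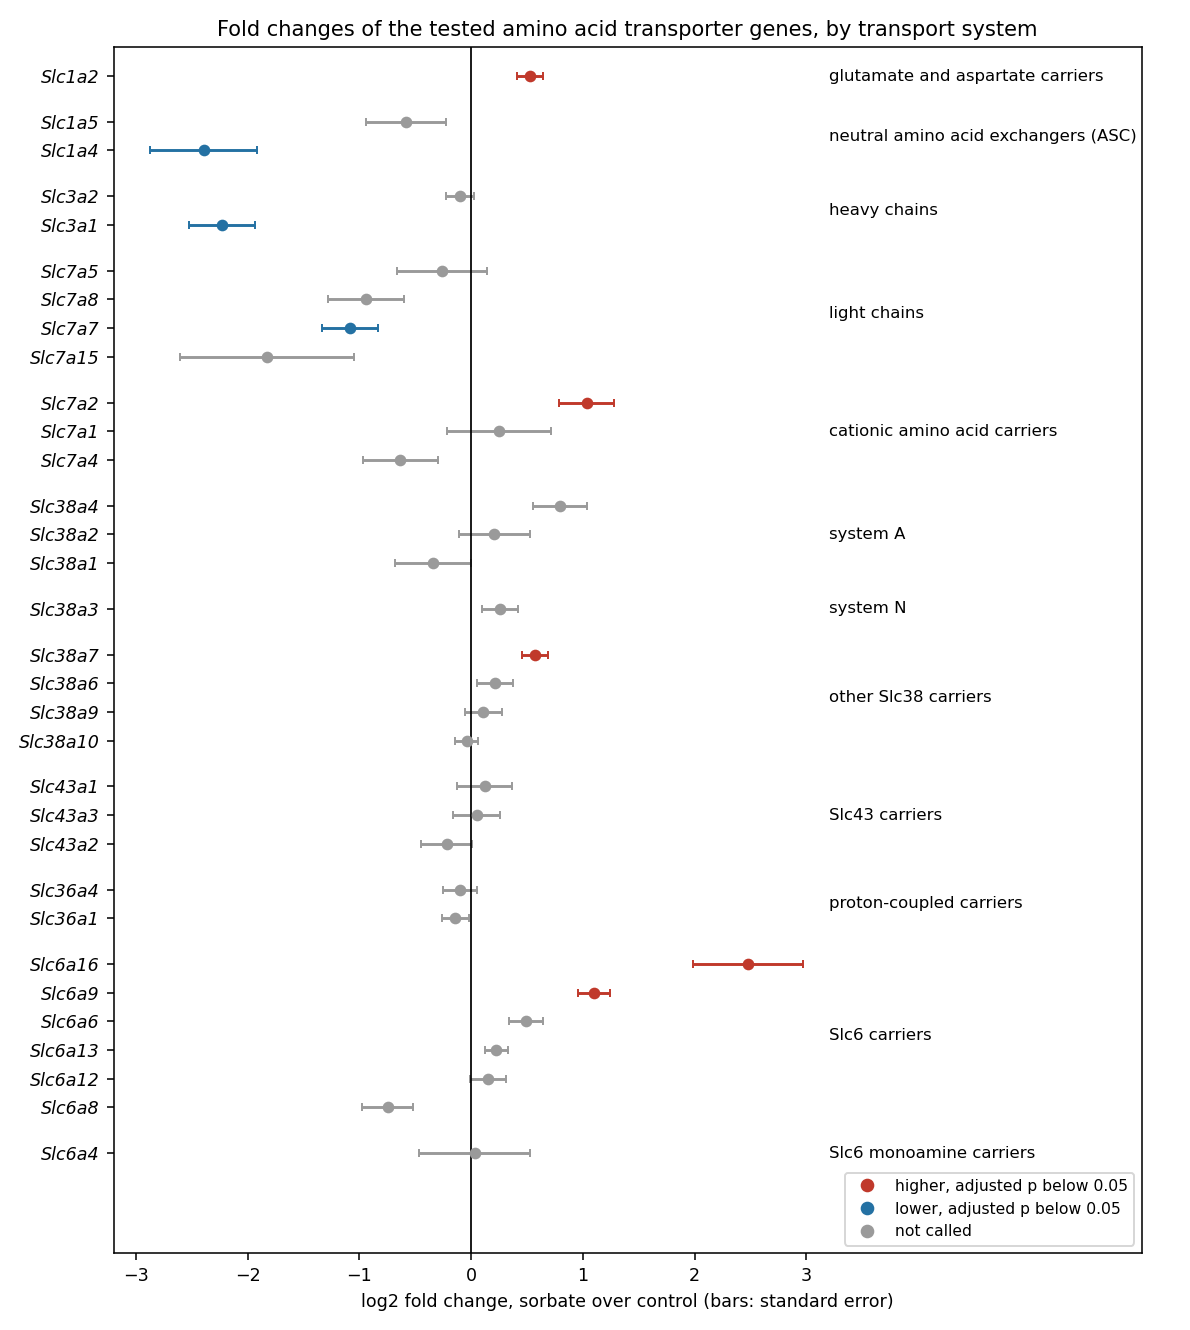
Log2 fold change, sorbate over control, of the 32 tested transporter genes, grouped by transport system; bars are standard errors and the colours mark an adjusted p below 0.05. Called genes lie to the right in 5 cases and to the left in 3, from 2.48 for Slc6a16 down to -2.39 for Slc1a4.

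Of the 2 heavy chains, Slc3a1 fell and Slc3a2 did not pass the test. Slc3a1 encodes rBAT, the heavy chain that carries light chains for cystine and basic amino acids to the membrane and is mutated in human cystinuria. It lies at chr17:85028376-85064236 on the plus strand (GRCm38, ENSMUSG00000024131). In sorbate libraries it had 28.5, 26.5, 38.7 and 32.3 CPM, against 182, 63.5, 155 and 189.6 CPM in control libraries. All sorbate values lay below all control values, with control 2 the lowest control. The log2 fold change was -2.23 with a standard error of 0.30 (adjusted p = 0.00205), and without control 2 it was -2.47. The opposite-strand gene Prepl covers 26.5% of the exon bases of Slc3a1. Since it is not known whether counting used strand, reads from there could have been assigned to either gene or left uncounted. Prepl itself had 23.0 ± 1.71 CPM in sorbate libraries and 22.6 ± 4.53 CPM in control libraries (SD, n = 4 each), with a log2 fold change of 0.03 (adjusted p = 0.911).

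Slc3a2, the 4F2 heavy chain that partners most other light chains, had 18.3, 17.8, 17.5 and 19.1 CPM in sorbate libraries, against 23.4, 16.4, 17.5 and 20.5 CPM in control libraries, with overlapping groups. Its log2 fold change was -0.10 with a standard error of 0.12 (adjusted p = 0.628), and 0.029 with scaling to library size alone. The ratio of Slc3a1 to Slc3a2, per kilobase of exon, was 2.70 ± 0.508 in sorbate libraries and 11.6 ± 3.83 in control libraries (SD, n = 4 each). The highest sorbate ratio, 3.44, lay below the lowest control ratio, 6.01. In these bulk samples, fewer cells that express a gene and less of its RNA per cell cannot be told apart.

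Of the 4 tested light chains, 1 was called, Slc7a7, which was lower with sorbate. All 4 had a log2 fold change below 0, though that of Slc7a5 was 0.35 without control 4. Slc7a7, or y+LAT1, exchanges basic for neutral amino acids, and is mutated in human lysinuric protein intolerance. It had 1.94, 2.27, 2.24 and 1.16 CPM in sorbate libraries, against 4.63, 3.02, 4.40 and 4.23 CPM in control libraries. The groups did not overlap, and control 2 was again the lowest control. The log2 fold change was -1.09 with a standard error of 0.25 (adjusted p = 0.0206). The call did not hold at an adjusted p of 0.05 when control 1, 3 or 4 or sorbate 1 or 4 was left out, with log2 fold changes of -0.92 to -1.09 and adjusted p of 0.0501 to 0.0650, in a range of 0.00356 to 0.0650 over all leave-outs. Slc7a7 is also expressed in macrophages. Of 12 Kupffer cell and macrophage markers tested, 6 were lower with sorbate, where 6.3% of all genes tested were. None was higher, and none was at 0 in all libraries. Their summed level was 231 to 437 CPM in sorbate libraries, against 314 CPM in control 2 and 558 to 737 CPM in the other controls. Their part in the result was not tested. The opposite-strand gene Oxa1l covers 6.998% of the exon bases of Slc7a7 and had a log2 fold change of 0.07 (adjusted p = 0.693).

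The 3 other tested light chains were not called. Slc7a8, or LAT2, an exchanger of neutral amino acids, had 1.94, 2.98, 2.97 and 1.28 CPM in sorbate libraries, against 4.58, 2.51, 6.67 and 3.94 CPM in control libraries, so that control 2 lay among the sorbate libraries. Its log2 fold change was -0.94 (adjusted p = 0.0921), and -1.12 without control 2 (adjusted p = 0.0152), while over all leave-outs the adjusted p ranged from 0.0152 to 0.265. Slc7a5, or LAT1, the exchanger of large neutral amino acids, had 1.68, 2.49, 1.88 and 2.07 CPM in sorbate libraries, against 1.89, 1.56, 1.31 and 4.92 CPM in control libraries. One control library stood above all others and the remaining 7 overlapped (log2 fold change -0.26, adjusted p = 0.703, and 0.35 without control 4). Slc7a15 had 20 counts over the sorbate libraries, against 65 over the control libraries, of which control 2 held 1 (log2 fold change -1.83, adjusted p = 0.140). It entered the test through 1 sorbate library and 3 control libraries over the count filter. Slc7a6, not tested, had 31 counts over the sorbate libraries, against 46 over the control libraries.

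Among the neutral amino acid exchangers of the ASC type, Slc1a4 fell and Slc1a5 was not called. Slc1a4, or ASCT1, carries serine, alanine and cysteine, and lies at chr11:20302180-20332713 on the minus strand. It had 1.68, 3.56, 2.29 and 1.64 CPM in sorbate libraries, against 19.5, 2.96, 12.3 and 13.5 CPM in control libraries. Controls 1, 3 and 4 stood far above every sorbate library, and control 2, at 2.96 CPM, lay within the sorbate range. On the log2 scale the fold change was -2.39 with a standard error of 0.48 (adjusted p = 0.0115), the most negative of the 32, and -2.70 without control 2 (adjusted p = 2.9e-05). Slc1a5, or ASCT2, a glutamine exchanger, had 1.72, 1.42, 1.601 and 1.58 CPM in sorbate libraries, against 2.69, 0.894, 2.22 and 3.64 CPM in control libraries. Control 2 was the lowest of all 8 values for Slc1a5 and the other 3 controls were the highest. Its log2 fold change was -0.58 (adjusted p = 0.304), and -0.83 without control 2 (adjusted p = 0.0241), in a range of 0.0241 to 0.655 over all leave-outs.

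Of the glutamate and aspartate carriers only Slc1a2 was expressed enough to test, and it was higher with sorbate. Slc1a2, or GLT-1, is the main glutamate carrier of astrocytes and in liver belongs to the hepatocytes around the central vein, where Glul makes glutamine. It lies at chr2:102658659-102790784 on the plus strand. It had 193, 189, 176 and 232 CPM in sorbate libraries, against 152, 131, 128 and 136 CPM in control libraries, and the groups did not overlap. The log2 fold change was 0.53 with a standard error of 0.12 (adjusted p = 0.0178). Without control 3 it was 0.50 (adjusted p = 0.0668) and without sorbate 4 it was 0.45 (adjusted p = 0.0541), in a range of 0.00853 to 0.0668 over all leave-outs. The summed level of 10 pericentral hepatocyte markers was 8314 to 9802 CPM in sorbate libraries and 4858 to 5898 CPM in control libraries, most of it from Cyp2e1, and 2 of the 10 were higher and 1 lower. The summed level of 10 periportal markers did not overlap between the groups either, at 11598 to 14070 CPM in sorbate libraries and 7212 to 11091 CPM in control libraries, and 2 of these 10 were called higher and none lower. Most of the periportal sum came from Cps1, Pck1 and Ass1, which were not called (adjusted p = 0.109, 0.209 and 0.0739). Among all genes tested, 6.14% were called higher and 6.3% lower. Glul, on the pericentral list, had a log2 fold change of -0.36 (adjusted p = 0.197). The part of these markers in the result was not tested. Slc1a3 had 32 counts over the sorbate libraries, against 30 over the control libraries, and was not tested.

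Among the carriers of cationic amino acids, Slc7a2 was higher with sorbate. It lies at chr8:40862396-40922308 on the plus strand (ENSMUSG00000031596) and encodes CAT2, whose liver form takes up arginine when it is abundant. It had 810.0, 697, 952 and 732 CPM in sorbate libraries, against 361, 574, 403 and 219 CPM in control libraries. Every sorbate value lay above every control value, and control 2 was the nearest to them. The means were 798 ± 113 CPM in sorbate libraries and 389 ± 146 CPM in control libraries (SD, n = 4 each), and the log2 fold change was 1.03 with a standard error of 0.25 (adjusted p = 0.0243). The adjusted p was above 0.05 when control 1 or 3, or sorbate 1, 3 or 4, was left out, with log2 fold changes of 0.94 to 1.08 and adjusted p of 0.0561 to 0.0699, and without control 2 the log2 fold change was 1.29 (adjusted p = 7.3e-04), the ends of the range over all leave-outs being 7.3e-04 and 0.0699. Slc7a1, the high-affinity carrier of most other tissues, had 0.598, 1.38, 0.366 and 0.669 CPM in sorbate libraries, against 0.896, 0.503, 0.338 and 0.787 CPM in control libraries, with overlapping groups (log2 fold change 0.25, adjusted p = 0.753). Slc7a4, a related protein without settled transport activity, had 0.897, 0.622, 0.823 and 0.426 CPM in sorbate libraries, against 1.49, 0.726, 1.06 and 1.08 CPM in control libraries, also overlapping (log2 fold change -0.63, adjusted p = 0.235).

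Systems A and N, which made up most of the summed level, held no called gene. Slc38a3, or SNAT3, moves glutamine into or out of hepatocytes and had 1639.6, 1441, 1763 and 1533 CPM in sorbate libraries, against 1712, 1297, 1242 and 1079 CPM in control libraries. Control 1 lay within the sorbate range and the other 3 controls below it (log2 fold change 0.26 with a standard error of 0.16, adjusted p = 0.318). Slc38a4, or SNAT4, carries alanine and other neutral amino acids into hepatocytes, and had 1138, 1273, 1400.0 and 1318 CPM in sorbate libraries, against 634, 1173, 656 and 487 CPM in control libraries. Control 2 lay within the sorbate range, and the other 3 controls stood well below every sorbate library. Sorbate over control gave a log2 fold change of 0.80 with a standard error of 0.24 (adjusted p = 0.0537), and 1.12 without control 2 (adjusted p = 2.0e-04), in a range of 2.0e-04 to 0.149 over all leave-outs. With scaling to library size alone its adjusted p was 0.0423 and in DESeq2 it was 0.00811. Per kilobase of exon, Slc38a3 stood at 1.01 ± 0.112 times the level of Slc38a4 in sorbate libraries and at 1.597 ± 0.541 times in control libraries (SD, n = 4 each), and these ratios overlapped.

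The other 2 system A carriers were also not called. Slc38a2, or SNAT2, had 105, 182, 240.4 and 323 CPM in sorbate libraries, against 165, 178, 268 and 126 CPM in control libraries. The sorbate libraries were spread widely, with a coefficient of variation of 43.3%, and they enclosed the control libraries (log2 fold change 0.21, adjusted p = 0.697). Slc38a1, or SNAT1, had 0.972, 0.8001, 0.778 and 1.16 CPM in sorbate libraries, against 1.59, 0.559, 1.16 and 1.33 CPM in control libraries, overlapping (log2 fold change -0.34, adjusted p = 0.538). Slc38a1, Slc38a2 and Slc38a4 lie in a row on chromosome 15, 44.5 and 295 kilobases apart. None was called, and their fold changes were not compared by a test. With standard errors of 0.34 for Slc38a1 and 0.31 for Slc38a2, the signs of these 2 genes are not settled.

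Of the other Slc38 carriers, Slc38a7 was higher with sorbate. Slc38a7, or SNAT7, exports glutamine and asparagine from lysosomes, and lies at chr8:95835920-95853539 on the minus strand (ENSMUSG00000036534). It had 19.7, 22.5, 17.9 and 20.7 CPM in sorbate libraries, against 13.8, 15.4, 12.2 and 12.99 CPM in control libraries, and the groups did not overlap. The log2 fold change was 0.57 with a standard error of 0.12 (adjusted p = 0.0119). Slc38a9, the arginine sensor of the lysosomal membrane that signals to mTORC1, had 12.4, 10.6, 13.7 and 11.9 CPM in sorbate libraries, against 9.41, 15.1, 9.57 and 11.02 CPM in control libraries, with overlapping groups (log2 fold change 0.11, adjusted p = 0.6996). Slc38a10, the most highly expressed of these per kilobase, had 80.9 to 90.9 CPM in sorbate libraries and 79.0 to 99.5 CPM in control libraries (log2 fold change -0.04, adjusted p = 0.834). Slc38a6 had 7.06 to 8.10 CPM in sorbate libraries and 5.46 to 8.49 CPM in control libraries (log2 fold change 0.22, adjusted p = 0.401). Both overlapped.

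Of the 6 tested Slc6 amino acid and osmolyte carriers, 2 were higher with sorbate and none was lower. Slc6a9, or GlyT1, takes up glycine with sodium and chloride, and lies at chr4:117834506-117875198 on the plus strand (ENSMUSG00000028542). It had 44.7, 43.9, 30.3 and 47.5 CPM in sorbate libraries, against 20.7, 20.7, 17.6 and 18.9 CPM in control libraries. The 4 controls lay close together, control 2 among them, and every sorbate library stood above them. Sorbate over control came to 1.10 on the log2 scale with a standard error of 0.14, and the adjusted p of 0.00199 was the lowest of the 32. The opposite-strand gene Ccdc24 covers 27.8% of its exon bases but had 3 counts over the 8 libraries. Slc6a16, a carrier of unknown substrate, lies at chr7:45241085-45273367 on the plus strand and had 33, 30, 31 and 21 counts in sorbate libraries, against 4, 10, 3 and 1 counts in control libraries. Its groups did not overlap (log2 fold change 2.48 with a standard error of 0.49, adjusted p = 0.0109). However, 4 sorbate libraries and only 1 control library, control 2, reached the count filter. With controls this low, Slc6a16 could enter the test only by being higher with sorbate. Its neighbour Slc6a21, 4.15 kilobases away, had 8 counts over the sorbate libraries, against 5 over the control libraries.

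**Figure D4:**
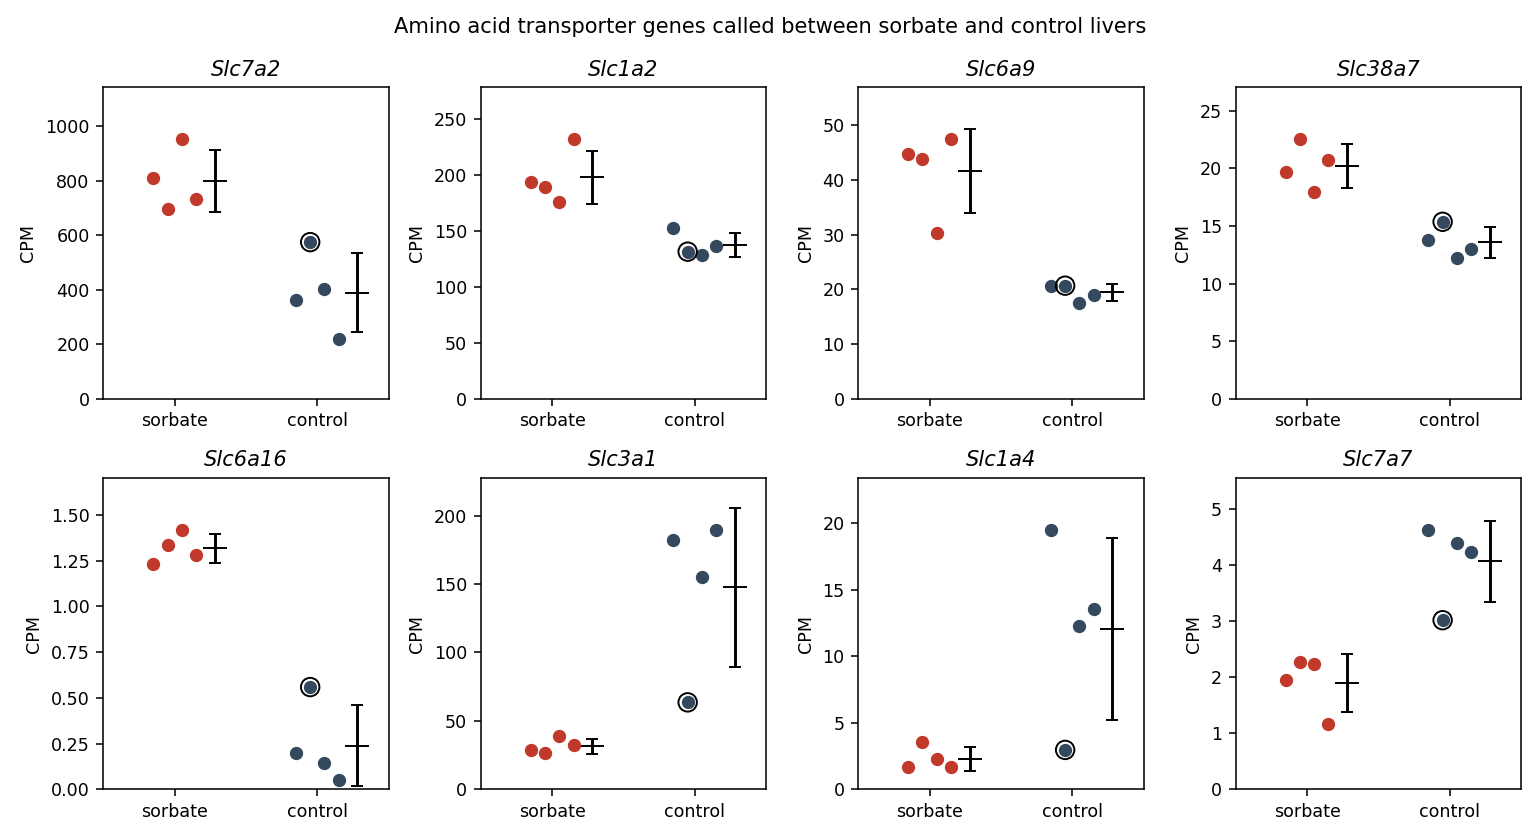
CPM in each library of the 8 called transporter genes, sorbate left of control, with lines for the mean and SD of 4 libraries and a ring around control 2. The control 2 point is the control nearest to the sorbate libraries for Slc7a2, Slc3a1, Slc1a4, Slc7a7, Slc38a7 and Slc6a16. For Slc6a9 it is level with control 1, at 20.7 CPM each, and close to the other controls.

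The 4 remaining Slc6 carriers of this kind were not called. Slc6a13, or GAT2, had 160.3, 172, 161 and 156 CPM in sorbate libraries, against 139, 154, 135 and 126 CPM in control libraries. Its groups did not overlap, by a gap between sorbate 4 and control 2, yet the log2 fold change of 0.23 did not pass (adjusted p = 0.163); without control 2 it was 0.29 (adjusted p = 0.0464), in a range of 0.0464 to 0.327 over all leave-outs. Slc6a12, or BGT1, lies 5.34 kilobases beyond it on chromosome 6 and had 76.7, 63.5, 85.4 and 80.7 CPM in sorbate libraries, against 77.0, 84.3, 63.2 and 51.5 CPM in control libraries, overlapping (log2 fold change 0.15, adjusted p = 0.564). Slc6a6, the taurine carrier, had 84.8, 67.1, 83.6 and 107 CPM in sorbate libraries, against 59.6, 71.8, 60.6 and 51.5 CPM in control libraries. Sorbate 2 and control 2 crossed, and all other sorbate libraries stood above all other controls. For Slc6a6 the log2 fold change was 0.49 (adjusted p = 0.0603), 0.59 without control 2 (adjusted p = 0.0119) and 0.60 without sorbate 2 (adjusted p = 0.0385), in a range of 0.0119 to 0.160 over all leave-outs. Slc6a8, the creatine carrier, had 5.76, 4.93, 4.03 and 5.05 CPM in sorbate libraries, against 11.4, 5.14, 8.03 and 8.61 CPM in control libraries. Control 2 lay within the sorbate range, and the other controls stood above it. For Slc6a8 the log2 fold change was -0.74 (adjusted p = 0.0566), and -0.90 without control 2 (adjusted p = 0.00282), in a range of 0.00282 to 0.143 over all leave-outs. Slc6a4, the serotonin carrier and the only monoamine carrier with enough counts, had 0.224 to 0.978 CPM in sorbate libraries and 0.290 to 1.03 CPM in control libraries (log2 fold change 0.03, adjusted p = 0.976).

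None of the 3 Slc43 carriers and neither of the 2 tested proton-coupled carriers was called. Slc43a3, a purine nucleobase carrier, had 16.9 to 24.7 CPM in sorbate libraries and 11.9 to 23.9 CPM in control libraries (log2 fold change 0.05, adjusted p = 0.905). The branched-chain carriers Slc43a1 and Slc43a2 had log2 fold changes of 0.12 and -0.22 (adjusted p = 0.780 and 0.558). Slc36a1, the proton-coupled carrier of lysosomes, had 28.4 to 37.6 CPM in sorbate libraries and 31.5 to 40.2 CPM in control libraries, and Slc36a4 had 8.36 to 11.4 CPM in sorbate libraries and 8.04 to 11.7 CPM in control libraries, with log2 fold changes of -0.14 and -0.10 (adjusted p = 0.463 and 0.712). All 5 overlapped between the groups.

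The regions around the transcription starts were searched for short motifs. RefSeq windows of 300 bases, 250 before to 50 after the start (GRCm38.p6), were matched to 25 of the 34 members, with 43 windows in all since some genes have several starts. Those without a window were Slc1a5, Slc38a1, Slc38a3, Slc43a3, Slc6a6, Slc6a8, Slc7a2, Slc7a4 and Slc7a5, of which Slc7a2 is a called gene. CACGTG, the E-box bound by factors such as the TFEB and CLOCK families, was in 4 of the 43 windows (Slc36a1, Slc38a7, Slc43a1 and Slc6a16), which is 9.3%, against 7.15% of all 32851 windows. The core promoter element TATAAA, searched on both strands like the rest, was in 6 of the 43 windows (Slc1a3, Slc38a4, Slc3a1, Slc43a1, Slc7a1 and Slc7a15), which is 14%, against 13.6% of all windows. Other motifs were in none of the member windows. They were the D-box TTANGTAA, in 2.32% of all windows, the STAT5 motif TTCCNGGAA, in 1.15%, the amino acid response element TGATGNAAT, in 0.965%, and the direct repeat of the nuclear receptor motif with 1 base between, in 0.0396%. The windows of the called genes with a match are shown so that the letters can be seen beside the values above, with the match in capitals. They are Slc38a7 at chr8:95853442-95853741 on the minus strand, Slc6a16 at chr7:45240503-45240802 on the plus strand and Slc3a1 at chr17:85028097-85028396 on the plus strand. The Slc6a16 window ends upstream of the gene position given above, which begins at 45241085, so its RefSeq start differs from that of the gene model. The matches begin 34 bases before the start in Slc38a7, 40 bases before it in Slc6a16, and 124, 20 and 18 bases before it in Slc3a1, where the last pair overlap on opposite strands.
Slc38a7: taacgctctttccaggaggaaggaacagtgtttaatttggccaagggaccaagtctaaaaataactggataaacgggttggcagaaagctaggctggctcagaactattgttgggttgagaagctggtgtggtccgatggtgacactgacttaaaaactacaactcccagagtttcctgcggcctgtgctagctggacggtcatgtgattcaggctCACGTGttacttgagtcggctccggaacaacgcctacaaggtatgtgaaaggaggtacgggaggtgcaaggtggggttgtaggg
Slc6a16: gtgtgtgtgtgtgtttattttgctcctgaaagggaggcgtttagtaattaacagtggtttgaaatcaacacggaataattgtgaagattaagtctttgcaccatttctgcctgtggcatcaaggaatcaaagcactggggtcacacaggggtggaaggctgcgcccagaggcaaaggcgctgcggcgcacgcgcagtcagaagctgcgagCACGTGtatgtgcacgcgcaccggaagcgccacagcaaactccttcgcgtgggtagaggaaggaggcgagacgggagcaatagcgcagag
Slc3a1: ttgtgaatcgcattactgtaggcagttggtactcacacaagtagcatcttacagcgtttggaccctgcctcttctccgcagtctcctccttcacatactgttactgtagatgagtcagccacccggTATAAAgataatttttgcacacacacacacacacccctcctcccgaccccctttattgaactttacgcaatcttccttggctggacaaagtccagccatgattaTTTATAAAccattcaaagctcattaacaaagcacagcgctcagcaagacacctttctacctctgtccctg

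Other genes of amino acid handling were counted beside the carriers. For each count below that rests on all 8 libraries, the share of all 13312 tested genes was 6.14% higher and 6.3% lower. Of 10 tested mitochondrial carriers 3 were higher and none lower, with a median log2 fold change of 0.04. They were Slc25a13, the aspartate-glutamate carrier of liver, with 224 ± 13.8 CPM in sorbate libraries and 137 ± 28.4 CPM in control libraries (SD, n = 4 each; adjusted p = 0.0122), and the sideroflexins Sfxn2 and Sfxn1, a mitochondrial serine carrier, with log2 fold changes of 0.38 each (adjusted p = 0.0377 and 0.0385). Of 22 tested genes that the transcription factor ATF4 is known to induce or work with when amino acids are short, 1 was higher and 5 lower, against the same 6.14% and 6.3% of all genes, with a median of -0.21. Atf5 had 111 ± 8.34 CPM in sorbate libraries and 259 ± 66.7 CPM in control libraries, and Asns, which makes asparagine, had 1.88 ± 1.00 CPM in sorbate libraries and 8.51 ± 2.59 CPM in control libraries (SD, n = 4 each; log2 fold changes -1.22 and -2.18, adjusted p = 0.00314 and 0.00601). Aldh18a1 and Mthfd2, enzymes of proline and of folate metabolism, had log2 fold changes of -1.76 and -1.78 (adjusted p = 0.0131 and 0.0166). The carriers above also include known ATF4 targets, among them Slc1a4, Slc3a2, Slc7a5 and Slc38a2. Of those named only Slc1a4 was called, and no full list of such carriers was counted. Without control 2 the ATF4 list had 2 higher and 9 lower genes, and it had 3 lower genes without control 3, control 4, sorbate 1 or sorbate 3. The mitochondrial list had 1 higher gene in place of 3 without control 3, control 4, sorbate 1, sorbate 3 or sorbate 4. Calls over all genes moved the same way. They were 2053 higher and 1915 lower without control 2, against 818 and 838 with all libraries. Without control 3, control 4, sorbate 1, sorbate 3 or sorbate 4 they were 332 to 432 higher and 357 to 428 lower.

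Of 31 tested genes of amino acid sensing by mTORC1, 4 were higher and 2 lower, with a median log2 fold change of 0.12; with 6.14% of all genes higher and 6.3% lower, the share called lower was near that of all genes. Fnip2 and Fnip1, partners of folliculin, had log2 fold changes of 1.58 and 0.86 (adjusted p = 0.0120 and 0.0226), Tfeb, the factor that drives lysosomal genes, 0.70 (adjusted p = 0.0243), and Sec13, a subunit of the GATOR complex, -0.56 (adjusted p = 0.0120). Of 32 tested enzymes that make or break down the transported amino acids, 7 were higher and 3 lower, against 6.14% and 6.3% of all genes, with a median of 0.19. Asl, the urea cycle enzyme that releases arginine, had 581 ± 64.7 CPM in sorbate libraries and 264 ± 32.3 CPM in control libraries (SD, n = 4 each; log2 fold change 1.14, adjusted p = 0.00129). The alanine aminotransferases Gpt and Gpt2 had log2 fold changes of 0.81 and 0.76 (adjusted p = 0.00641 and 0.00752), and Bhmt, which uses the betaine that Slc6a12 carries, -0.80 (adjusted p = 0.00766). Of 6 other tested carriers of the plasma and lysosomal membranes 1 was higher, Slc15a4, the histidine and peptide carrier of lysosomes, with a log2 fold change of 0.82 (adjusted p = 0.0111), and none was lower. Without control 2 the higher genes numbered 6 for mTORC1 sensing, 12 for the enzymes and 2 for these other carriers, and without control 3 or sorbate 4 they numbered 1 for mTORC1 sensing and 3 for the enzymes. Over all genes, 2053 were higher without control 2, 332 without control 3 and 367 without sorbate 4, against 818 with all libraries.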

How the data were processed

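RNA sequencing of snap-frozen mouse liver was measured in 4 sorbate and 4 control libraries of poly(A) RNA on an Illumina HiSeq instrument, per the labels' protocols. The deposited table holds counts, whole numbers of reads per gene that the authors did not normalize as far as the values show. FastQC, HISAT2 2.1.0, Subread, edgeR and the build GRCm38 are named in the submitters' processing notes. Which annotation release was counted, and whether by strand, was not given in the sources used here. Because of this, a read from 2 overlapping genes or near-identical paralogs may have been assigned to either or left uncounted. 4 further columns of counts match no sample and were not used.

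Genes kept by filterByExpr with a minimum count of 10 were scaled by TMM and tested with edgeR 4.0.16 (quasi-likelihood, two-sided, R 4.3.3), with Benjamini-Hochberg adjustment over all 13312 tested genes and a threshold of 0.05; the code was tested on simulated data. A gene is called when it passes that threshold. Levels per kilobase use the union of GENCODE vM21 exons, and all 34 members had a gene model. Alternatives were library size alone, median-of-ratios size factors, no count filter, DESeq2 1.42.0, an adjusted p of 0.1 and leaving out each library. Replicate numbers name libraries only and pair nothing. Total counts of 15773932 to 25844731 per library set the precision, and genes with few counts are the least certain. Named genes were every called member, the most highly expressed member and the one with the lowest p of each transport system, the genes next to the 40-count limit, and up to 4 called genes of each other list; the remaining members were added after their values were seen, so that every member is accounted for. Slc7a15 and Slc6a21 were put in their systems after the other genes. The members and lists were chosen with earlier results of these data known.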

Additional observations from a re-analysis of the deposited data

Results flagged for a closer look

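Slc7a5, the exchanger of large neutral amino acids, had 4.92 CPM in control 4, against 1.31 to 1.89 CPM in the other 3 control libraries. The gap to the nearest of them was 0.838 of the range of the group, above Dixon's critical value for a group of 4 libraries. Of 68 groups of 4 checked, 34 genes in each of 2 treatments, this was the 1 flagged, and chance alone flags about 1 in 20.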

How the results depend on the processing

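The number of transporter genes called higher was 5, and 3 to 8 when 1 library was left out, with 3 without control 3 or without sorbate 4 and 8 without control 2. The number called lower was 3, and 2 to 7 when 1 library was left out (7 without control 2), 5 in DESeq2 and 5 at an adjusted p of 0.1. Control 2 is the library whose removal moved both counts up. The genes added without it were Slc38a4, Slc6a13 and Slc6a6 among the higher, and Slc6a8, Slc7a8, Slc1a5 and Slc7a15 among the lower. Over all genes the calls without it were 2053 higher and 1915 lower, against 818 and 838 with it. All-gene calls were 332 higher and 357 lower without control 3, 367 and 366 without sorbate 4, and 1208 and 1243 in DESeq2. Slc3a1, Slc6a9, Slc38a7, Slc1a4 and Slc6a16 were called in all 8 leave-outs. Slc6a16 entered the test through its sorbate libraries, where it was high, so its repeated calls add no support. Library size alone moved the median of all genes to 0.11 and made 1300 higher and 550 lower calls.

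When 1 library was left out, mitochondrial carriers called higher numbered 1 to 3, ATF4 genes 0 to 2 higher and 3 to 9 lower, mTORC1 sensing genes 1 to 6 higher and 1 to 2 lower, enzymes 3 to 12 higher and 1 to 4 lower, and other carriers 1 to 2 higher and 0 to 1 lower. Over all genes the same leave-outs gave 332 to 2053 higher and 357 to 1915 lower. With no count filter 1 mitochondrial carrier and 0 ATF4 genes were higher and 1 mTORC1 gene lower. Over all 23605 genes tested without that filter, 886 were higher and 963 lower. With library size alone 1 mTORC1 gene and 1 enzyme were lower, beside 550 lower genes in all. In DESeq2, 2 ATF4 genes and 11 enzymes were higher, beside 1208 higher genes in all. The uncalled log2 fold changes of 9 tested members changed sign under at least 1 alternative: Slc38a10 was 0.087 with library size alone and 0.029 without control 1 (-0.074 to 0.029 over the leave-outs); Slc43a3 was -0.12, -0.039 and -0.018 without control 2, sorbate 2 and sorbate 3 (-0.12 to 0.14); and Slc6a4 was -0.027, -0.22, -0.21 and -0.079 without control 2, control 3, sorbate 2 and sorbate 4 (-0.22 to 0.35); Slc38a2 was -0.062 without sorbate 4, Slc43a1 -0.051 without control 4, Slc7a5 0.35 without control 4, Slc7a1 -0.22 without sorbate 2, Slc36a4 0.032 with library size alone, and Slc3a2 0.029 with library size alone and 0.0022 without control 1. The cause was not tested. No paired analysis was possible because the labels give no numbers that pair the libraries. Genes under about 1 CPM rest on few counts.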
